A study of Rattus norvegicus with 12 samples.

Results

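The insulin-like growth factor (IGF) family was followed through rat hearts exposed to sorafenib. Its 10 genes, the ligands Igf1 and Igf2, the receptors Igf1r and Igf2r and the binding proteins Igfbp2 to Igfbp7, were found by symbol among 34322 genes in the count tables of both treatment lengths. Symbols alone picked the rows, but the family was proposed with results of these libraries in view, so the tests below place its members among all genes and are not independent evidence about the family.

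The series holds 4 groups of 3 libraries each. Hearts came from wild-type male SD rats of 180-200 g at the start that received sorafenib at 50 mg/kg by daily gavage for 28 days, deionized water for 28 days, the same sorafenib dose for 14 days, or water for 14 days. Sorafenib is a cancer drug that inhibits RAF kinases and several receptor tyrosine kinases, and the series title concerns its toxicity to the heart and the splicing factor RBM20. Nothing in the labels ties each library to its own animal, and the p-values therefore speak of spread among libraries, which may be technical. Each treatment length has its own table, so age, treatment length and any difference between the tables cannot be told apart.

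IGF1 and IGF2 are secreted peptides that act mainly through the tyrosine kinase receptor encoded by Igf1r, which signals to PI3K and AKT and to the RAS and MAPK cascade. Circulating IGF1 comes largely from the liver under growth hormone, and the heart also makes its own, in good part in fibroblasts and other stromal cells. Igf2r encodes the mannose 6-phosphate receptor, which takes up IGF2 and sends it to lysosomes. Binding proteins hold the ligands in blood and matrix and can block or aid their access to the receptor, and proteases release the ligands by cutting them.

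Total counts were 13746366 to 26403196 in 11 libraries and 1036483 in sorafenib day 28 replicate 3. There 1 count equals 0.965 counts-per-million (CPM, the unit used here) before TMM normalization. Only 16908 genes were counted at all in that library and 21899 to 22748 in each of the others, so the values of the members were also taken without it. This moved the day 28 log2 fold change by 0.60 for Igf1, by 0.23 for Igfbp6 and by 0.08 or less for the other 7 tested members. Cardiomyocyte markers, 7 of 7 with counts, summed to 29901 to 71117 CPM over all libraries, which fits the labelled tissue. Of the hepatocyte markers, Alb and Fgb had no count in any sorafenib library. The hepatocyte sum was 84.1 CPM in water day 28 replicate 4, against 10.7 to 22.9 CPM in the other 11 libraries. That library was also the highest of its group in every tested member but Igf1r. The part of hepatocyte transcripts in these levels was not tested. Levels below are CPM after TMM normalization over all 12 libraries, and levels of different genes are compared only as CPM per kilobase (kb) of annotated exon.

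Igf1r, Igfbp5 and Igfbp7 were the members that passed a test in some comparison. The 250 bases upstream of their annotated RefSeq transcription starts are shown. Whether these bases regulate the genes, and which starts are used in these hearts, was not tested. The stretches were matched by symbol, as were all 10 members, and come from RefSeq on the assembly GRCr8, on the coding strand and 5′ to 3′. Capitals mark matches, on either strand, to a TATA box (letters TATAAA), a GC box (letters GGGCGG), the CCAAT box, a forkhead motif (letters GTAAACA) or an E-box (letters CACGTG).
Igf1r, chr1:130959747-130959996, plus strand: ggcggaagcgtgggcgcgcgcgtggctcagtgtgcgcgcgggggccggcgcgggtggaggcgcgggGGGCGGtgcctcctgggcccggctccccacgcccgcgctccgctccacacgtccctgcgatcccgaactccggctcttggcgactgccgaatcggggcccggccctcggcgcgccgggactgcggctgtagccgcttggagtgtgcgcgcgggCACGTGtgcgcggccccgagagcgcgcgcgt
Igfbp5, chr9:81914188-81914437, minus strand: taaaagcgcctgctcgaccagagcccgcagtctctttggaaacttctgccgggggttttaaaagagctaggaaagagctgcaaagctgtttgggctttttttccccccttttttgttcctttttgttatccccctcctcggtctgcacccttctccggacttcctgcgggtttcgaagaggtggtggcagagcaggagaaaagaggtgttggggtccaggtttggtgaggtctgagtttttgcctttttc
Igfbp7, chr14:31091486-31091735, plus strand: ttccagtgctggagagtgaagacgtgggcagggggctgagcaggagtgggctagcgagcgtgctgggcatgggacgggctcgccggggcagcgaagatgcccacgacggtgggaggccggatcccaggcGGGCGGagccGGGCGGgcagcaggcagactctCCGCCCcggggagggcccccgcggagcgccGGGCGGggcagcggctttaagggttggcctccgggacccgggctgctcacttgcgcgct
The Igf1r stretch was 79.6% G and C with 45 CpG dinucleotides, 1 GC box and 1 E-box. Igfbp5 had 51.6% G and C, 8 CpG and none of the 5 motifs, and Igfbp7 had 74.4%, 26 CpG and 4 GC boxes. Over 33469 promoters of the same length the medians were 51.2% and 5 CpG. A GC box was present in 30.5% of those promoters, an E-box in 5.59%, a TATA box in 12.9%, a CCAAT box in 34% and the forkhead motif in 3.21%. No marked matches of different motifs overlapped in these 3 stretches, and a match describes letters only.

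Igfbp5 was lower and Igf1r higher in sorafenib hearts than in water hearts at both treatment lengths. Averaged over the days, Igfbp5 fell to 0.485 of its water level and Igf1r rose 1.28-fold. These were the members that passed the test in that average, 1 in each direction of 9 tested, where 4.41% of 18174 genes passed (2% higher and 2.41% lower). Within either day 0 members passed, as did 0% of all genes: 0 of 17021 at day 28 and 0 of 17406 at day 14 by edgeR's quasi-likelihood test. At an unadjusted p under 0.05 there were 2 higher and 2 lower members at day 28, where 14.9% of all genes passed that mark (7.04% higher, 7.83% lower), and 1 higher and 2 lower at day 14, where 14% did (7.09% and 6.93%). DESeq2, the other tool run, called 2 members at each day, where it called 1.74% of all genes at day 28 and 2.46% at day 14.

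Counting levels alone, 2 members lay wholly above and 4 wholly below water at day 28, where 9.81% of all genes lay above and 11.6% below, 21.4% together. At day 14, 1 lay wholly above and 2 wholly below, beside 10.5% and 10.3% of all genes, 20.8% together, and at both days alike Igf1r lay above and Igfbp5 below, beside 5.8%. The share of members apart was thus above that of all genes at day 28 and near it at day 14. A family chosen with results known cannot test this. Without TMM factors Igfbp4 and Igfbp7 overlapped with water at day 28, as did Igf1 at day 14. The shares of all genes were taken with TMM factors only. The sorafenib effect differed between the days for 0 of 9 members by edgeR, with 0 at an unadjusted p under 0.05 and 0 by DESeq2; of all genes 0% passed by edgeR, 4.42% had an unadjusted p under 0.05 and 0.0185% passed by DESeq2.

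**Figure D1:**
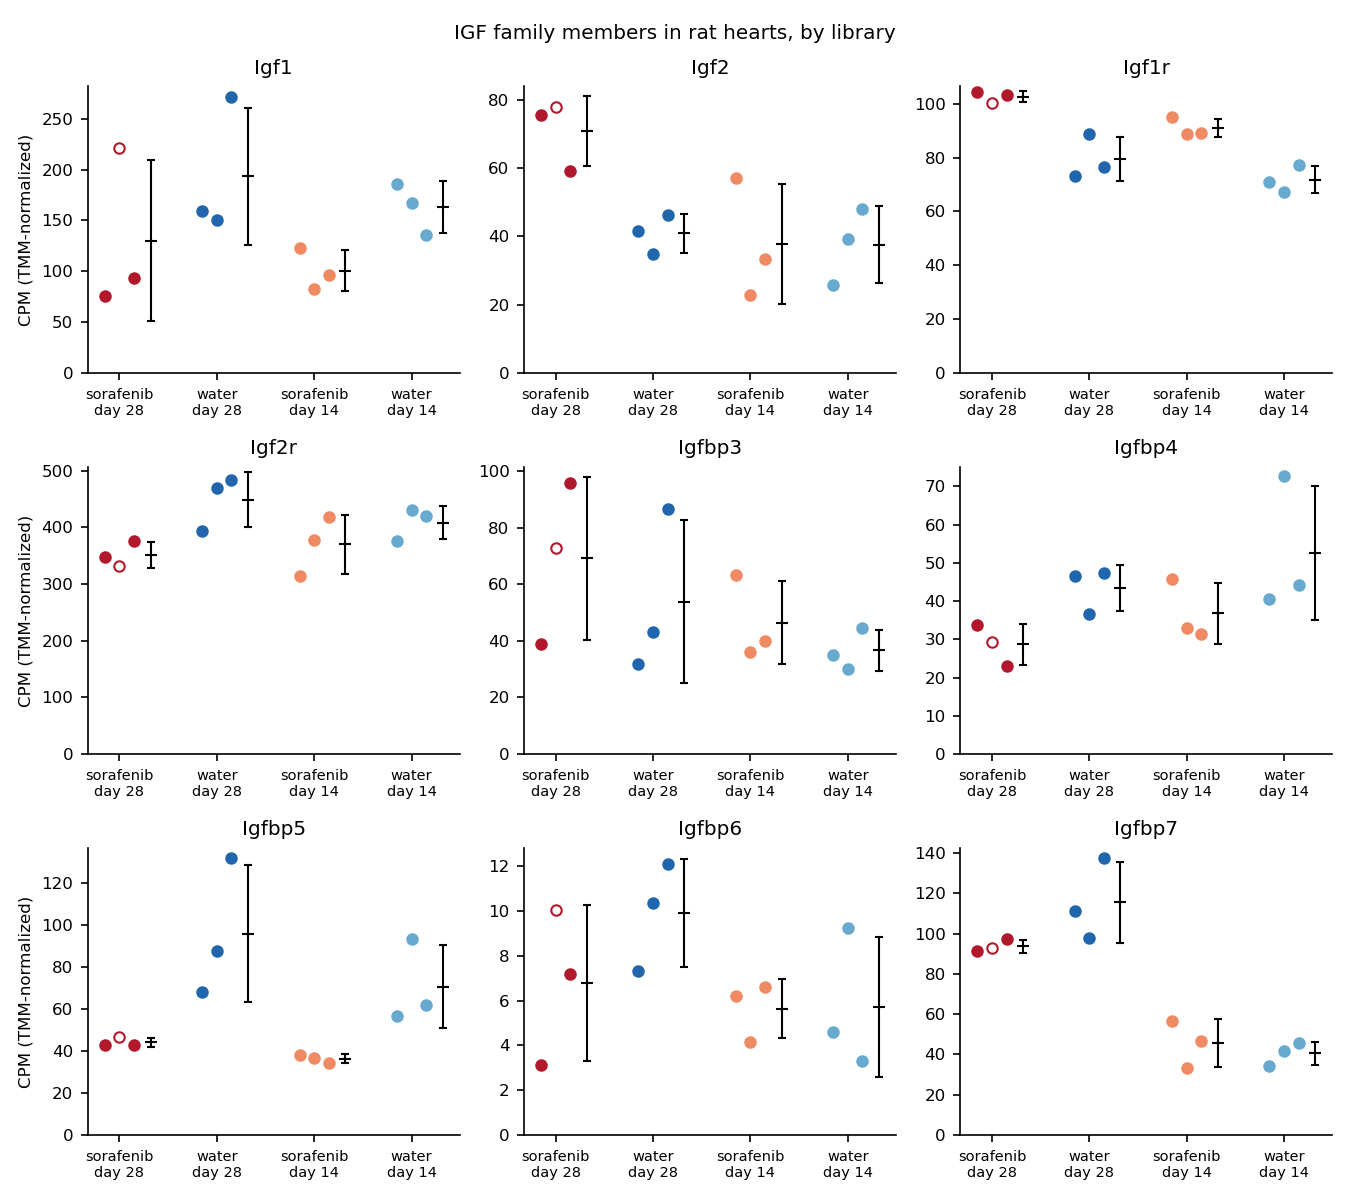
Level (TMM-normalized CPM, axes from 0) of the 9 tested members in each library, with mean and SD of 3 libraries per group beside the points; the open circle is the shallow library, sorafenib day 28 replicate 3. Sorafenib points of Igfbp5 lie below, and those of Igf1r above, the water points of the same day, and Igfbp7 is higher at day 28 than at day 14 in both treatments.

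Of the ligands, Igf1 was at 75.8, 221 and 92.9 CPM in sorafenib day 28 libraries (replicates 2, 3 and 4) and at 159, 150 and 271 CPM in water day 28 libraries. At day 14 it was at 123, 82.9 and 96.7 CPM with sorafenib (replicates 5, 6 and 7) and at 186, 167 and 136 CPM with water (replicates 2, 3 and 7). All sorafenib libraries lay below all water libraries at day 14, and the groups overlapped at day 28 through the shallow replicate 3, which had 264 Igf1 counts.

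Igf1 did not pass in any of the 5 comparisons by edgeR, and DESeq2 gave it an adjusted p of 0.0214 at day 14. Its log2 fold change was -0.58 ± 0.39 (SE) at day 28, adjusted p 0.492, -0.69 ± 0.18 at day 14, adjusted p 0.173, and -0.66 ± 0.24 for the average, adjusted p 0.111. Without the shallow library the average was -0.92, adjusted p 0.0237, and the day 28 value was -1.18, adjusted p 0.163; the other left-out libraries moved the day 28 value as far as -0.27, reached without water replicate 4.

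The shallow library was also the highest in fibroblast markers. The 8 markers, all with counts in every group, summed to 1776, 4491 and 1592 CPM in sorafenib day 28 replicates 2, 3 and 4, and to 2776, 3171 and 4339 CPM in water replicates 2, 3 and 4. At day 14 the sums were 3654, 2434 and 2463 CPM with sorafenib and 3033, 3647 and 3025 CPM with water. The library highest in this sum within each of these groups but water day 14 was also the highest in Igf1. The library highest in summed myeloid markers was the highest in Igf1 within every group. In the sorafenib groups these were day 28 replicate 3 (276 CPM of myeloid markers) and day 14 replicate 5 (192 CPM). In the water groups they were day 28 replicate 4 (334 CPM) and day 14 replicate 2 (285 CPM). The part of fibroblast or myeloid content in the Igf1 values was not tested. In whole-heart RNA, fewer cells of a type and less RNA per cell cannot be told apart.

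Igf2, the growth factor best known from fetal life and paternally expressed in rodents, was at 75.5, 77.8 and 59 CPM with sorafenib for 28 days, against 41.6, 34.7 and 46.3 CPM with water. All 3 sorafenib libraries were above all water libraries. At day 14 it was at 57.1, 22.8 and 33.5 CPM with sorafenib and at 25.7, 39.1 and 48.1 CPM with water, and the groups overlapped. The log2 fold change was 0.82 ± 0.18 at day 28 (adjusted p 0.152) and 0.02 ± 0.34 at day 14 (adjusted p 0.99). The difference between the days, 0.77 ± 0.41, had an unadjusted p of 0.0768 and did not pass edgeR's test after adjustment (0.999), so Igf2 is not shown to respond differently at the days. DESeq2 gave Igf2 an adjusted p of 0.0251 at day 28. The shallow library held 93 Igf2 counts, and without it the day 28 value was 0.74 (adjusted p 0.191). The gene overlaps uncharacterized genes on both strands and Mir483 on its own strand (chr1:197814409-197831802, mRatBN7.2, minus strand), and the counts were made without strand, so reads of these genes cannot be told apart.

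Igf1 stood 1.37 ± 0.714 times as high as Igf2 per kb of exon in sorafenib day 28 hearts and 3.55 ± 0.807 times in water day 28 hearts (SD, n = 3 each). At day 14 this ratio was 2.2 ± 0.567 with sorafenib and 3.63 ± 1.71 with water. Its ranges were 0.763 to 2.16 against 2.90 to 4.45 at day 28, and 1.63 to 2.77 against 2.14 to 5.51 at day 14. So the mix of ligand transcripts did not overlap between the treatments at day 28 and overlapped at day 14. The highest ratio with sorafenib at day 28 was that of the shallow library, and the other 2 libraries had 0.763 and 1.20.

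Among the receptors, Igf1r differed little between libraries of a group, with coefficients of variation of 2.03 to 10.3%. The 2.03%, of sorafenib day 28, includes the shallow library, where the counting error of 120 counts is larger than that value. Igf1r was at 104, 100 and 103 CPM in sorafenib day 28 libraries, against 73.3, 88.8 and 76.6 CPM in water day 28 libraries. At day 14 it was at 95, 88.8 and 89.2 CPM with sorafenib, against 71.1, 67.2 and 77.1 CPM with water. At each day every sorafenib library was above every water library; of all genes, 2.44% lay wholly above at both days.

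The log2 fold change of Igf1r was 0.41 ± 0.14 at day 28 and 0.35 ± 0.12 at day 14 (adjusted p 0.274 and 0.252). The average was 0.36 ± 0.09 with an adjusted p of 0.04, close to the threshold of 0.05. Leaving out 1 library at a time kept it between 0.32 and 0.40, and its adjusted p was above 0.05, up to 0.115, in 9 of 12 such fits, all but those without sorafenib day 28 replicate 3 or 4 or sorafenib day 14 replicate 5. Igf1r has the longest annotated exons of the family (13.9 kb; chr1:121549839-121838545, mRatBN7.2, plus strand, overlapped on the other strand by Pgpep1l). When each library's trend of level with exon length was removed, an alternative chosen after seeing the data, its average was 0.24 ± 0.09 with an adjusted p of 0.127.

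Igf2r was the more abundant receptor, at 348, 331 and 375 CPM in sorafenib day 28 hearts, against 394, 470 and 483 CPM in water day 28 hearts, with no overlap. At day 14 the levels were 315, 377 and 417 CPM with sorafenib and 376, 430 and 420 CPM with water, and they overlapped. Its log2 fold change was -0.31 ± 0.17 at day 28, -0.14 ± 0.16 at day 14 and -0.25 ± 0.12 for the average (adjusted p 0.41, 0.722 and 0.205). Per kb of exon, Igf2r averaged 39.9 CPM with sorafenib and 51 CPM with water at day 28, and 42 CPM with sorafenib and 46.4 CPM with water at day 14, whereas Igf1r stayed between 4.85 and 7.54 CPM per kb over all 12 libraries.

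**Figure D2:**
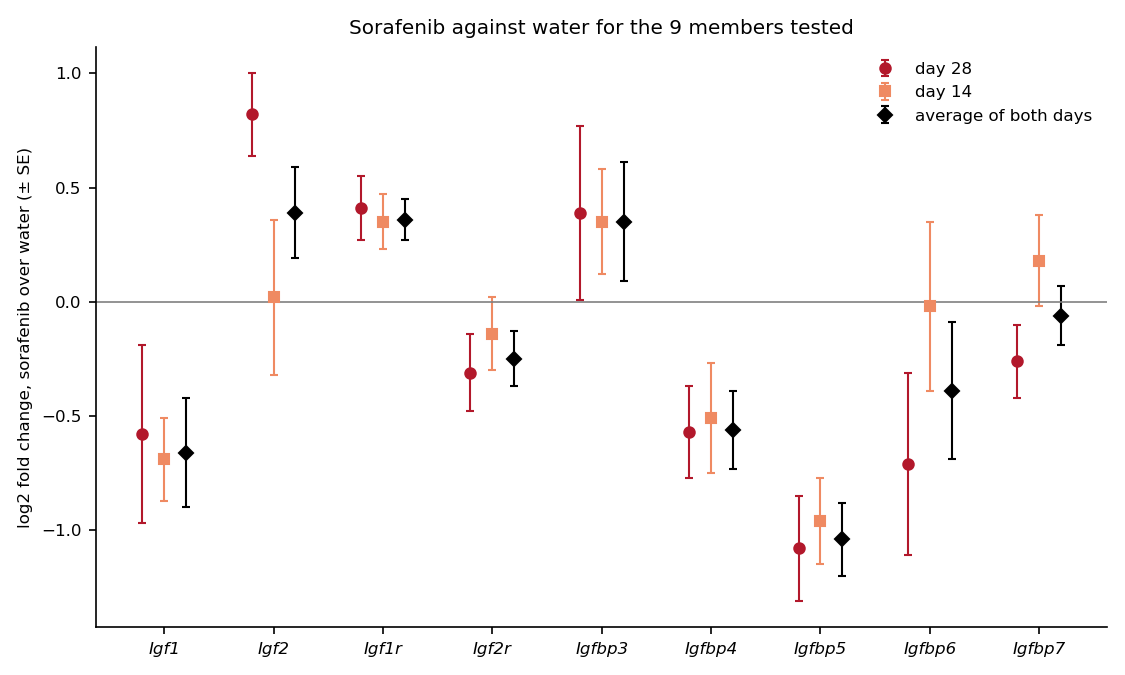
Log2 fold change of sorafenib over water (± SE) for the 9 tested members at day 28 (circles), day 14 (squares) and averaged over both days (diamonds). The average of Igfbp5 (-1.04) and that of Igf1r (0.36) have an adjusted p under 0.05; Igf2 is at 0.82 on day 28 and 0.02 on day 14.

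The binding proteins had values of both signs. Of 5 tested, Igfbp5 fell in the average and the other 4 did not pass: Igfbp4, Igfbp6 and Igfbp7 had negative values and Igfbp3 a positive one. Their median log2 fold change was -0.57 at day 28, -0.02 at day 14 and -0.39 for the average, and the median of all genes tested was 0, 0 and -0.01.

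Igfbp5 encodes a binding protein that attaches to extracellular matrix and can hold IGF there. Sorafenib day 28 hearts had 43, 46.8 and 43 CPM of Igfbp5, against 68, 87.9 and 132 CPM in water day 28 hearts. Sorafenib day 14 hearts had 38.2, 36.7 and 34.1 CPM, against 57, 93.6 and 61.8 CPM in water day 14 hearts. No sorafenib library reached the lowest water library of its day, and no other member lay wholly below at both days; 3.36% of all genes did so. The shallow library contributed 56 Igfbp5 counts, and the other 11 libraries had 563 to 2785.

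The log2 fold change of Igfbp5 was -1.08 ± 0.23 at day 28 (adjusted p 0.139) and -0.96 ± 0.19 at day 14 (adjusted p 0.114). For the average it was -1.04 ± 0.16 with an adjusted p of 0.00911, the 26th smallest p among 18174 genes. The difference between the days was -0.17, with an adjusted p of 0.999. Within the single days the call depended on the tool: DESeq2 gave adjusted p-values of 0.00573 at day 28 and 0.000883 at day 14. The coefficient of variation of Igfbp5 was 4.98% and 5.7% in the sorafenib groups of day 28 and day 14, and 34.1% and 28.1% in the water groups of day 28 and day 14. The 4.98% includes the shallow library, where the counting error of 56 counts is larger than that value. Whether the spread itself differed was not tested.

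Markers of other cell types had values of both signs in the average, and those that passed fell, where 2.41% of all genes fell. Lum (fibroblast, 1 of 8 markers that fell) had a log2 fold change of -0.77, with the other 7 at -0.35 to 0.64. Of the mural markers 1 of 8 fell, Kcnj8 (-0.63), while Myh11 and Acta2 were at 0.48 and 0.45 (adjusted p 0.153 and 0.188). Of the endothelial markers 2 of 8 fell, Kdr (-0.73) and Emcn (-0.54), and Vwf, Tek and Egfl7 were at 0.25, 0.13 and 0.12 (adjusted p 0.247, 0.404 and 0.754). C1qa, C1qb and Cybb (myeloid, 3 of 8) fell by 1.23, 0.98 and 1.14 on the log2 scale, and all 8 myeloid values were below 0. Sln (atrial, 1 of 5) was at -5.35 ± 1.06 (adjusted p 0.0235), with Nppa at 1.53 (adjusted p 0.176).

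In each of the 4 groups the library with the highest fibroblast sum also had the highest Igfbp5: replicate 3 of sorafenib day 28 (46.8 CPM), replicate 4 of water day 28 (132 CPM), replicate 5 of sorafenib day 14 (38.2 CPM) and replicate 3 of water day 14 (93.6 CPM). Over water day 28 replicates 2, 3 and 4 both had the same order, with Igfbp5 at 68, 87.9 and 132 CPM and the sum at 2776, 3171 and 4339 CPM. Over sorafenib day 28 replicates 2, 3 and 4 Igfbp5 was at 43, 46.8 and 43 CPM and the sum at 1776, 4491 and 1592 CPM. Summed mural markers were at 753 to 1071 CPM with sorafenib and 1052 to 1134 CPM with water at day 28, and at 1055 to 1139 CPM with sorafenib and 941 to 1112 CPM with water at day 14. Summed myeloid markers were at 108 to 276 CPM with sorafenib and 228 to 334 CPM with water at day 28, and at 77.8 to 192 CPM with sorafenib and 156 to 285 CPM with water at day 14. Summed mural and endothelial markers were also highest in the library of highest Igfbp5 in every group but water day 28. For summed myeloid markers this held in every group but water day 14. Summed adipocyte markers, at 6.87 CPM or less, matched in all 4 groups. The 46.8 CPM of Igfbp5 rests on 56 counts, and the 38.2 CPM lies near the 36.7 CPM of sorafenib day 14 replicate 6. The part of any of these markers in the Igfbp5 result was not tested.

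Igfbp4, an inhibitor of IGF action that the protease PAPP-A cleaves, was at 33.7, 29.3 and 23.1 CPM in sorafenib day 28 hearts, against 46.6, 36.6 and 47.3 CPM in water day 28 hearts, again without overlap. At day 14 it was at 45.9, 33 and 31.4 CPM with sorafenib and at 40.5, 72.6 and 44.3 CPM with water. Its average log2 fold change was -0.56 ± 0.17, which missed the threshold by edgeR (adjusted p 0.0649) and passed by DESeq2 (adjusted p 0.0395). An uncharacterized gene overlaps it on the other strand.

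Igfbp3, the main carrier of IGF1 in serum, had the opposite sign, with wide spread. Its levels were 38.8, 72.7 and 95.8 CPM with sorafenib and 32, 43.1 and 86.6 CPM with water at day 28, and 63.2, 36.2 and 39.9 CPM with sorafenib and 35.1, 30.2 and 44.6 CPM with water at day 14. The groups overlapped at both days, and the average log2 fold change was 0.35 ± 0.26 (adjusted p 0.434).

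Igfbp6, which binds IGF2 in preference to IGF1, was counted at low levels. It was at 3.11, 10 and 7.18 CPM with sorafenib and 7.32, 10.3 and 12.1 CPM with water at day 28, and at 6.18, 4.14 and 6.6 CPM with sorafenib and 4.59, 9.26 and 3.31 CPM with water at day 14. The value of 10 CPM rests on 12 counts in the shallow library. Its log2 fold change was -0.71 at day 28 and -0.94 there without that library (adjusted p 0.353), and the average was -0.39 ± 0.3 (adjusted p 0.434).

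Igfbp2, a carrier made in the fetus and in the adult liver and brain, was barely counted. It had 0, 0 and 4 counts in sorafenib day 28 libraries, 0 in each water day 28 library, 0, 3 and 0 in sorafenib day 14 libraries, and 2, 12 and 2 in water day 14 libraries, so it was below the filter and was never tested. A count of 0 allows up to 0.114 to 0.145 CPM in a water day 28 library and up to 2.89 CPM in the shallow library (3 counts per library, counting error only, CPM without TMM factors). Its neighbour Igfbp5 lies tail to tail with it 9.43 kb away on chromosome 9 (Igfbp2, chr9:74415574-74442945, plus strand; Igfbp5, chr9:74452371-74464953, minus strand; mRatBN7.2) and had 56 or more counts in every library. Likewise Igfbp3 was counted in every library (chr14:82056347-82064083, minus strand). Igfbp1, 3.86 kb from it and named after its values were seen, had 1 count in all sorafenib day 28 libraries together and 0 at day 14. Water day 28 had 10 Igfbp1 counts, all in replicate 4, the library with the hepatocyte marker sum of 84.1 CPM. The part of hepatocyte transcripts in these counts was not tested.

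Igfbp7 encodes a secreted protein of vessel walls with low affinity for IGF, and it was the member that differed between the days. It was at 91.2, 92.8 and 97.4 CPM in sorafenib day 28 hearts and 111, 98 and 137 CPM in water day 28 hearts, where the groups did not overlap but came close, at 97.4 against 98 CPM. At day 14 it was at 56.8, 33.2 and 46.9 CPM with sorafenib and at 34, 41.9 and 45.5 CPM with water. The log2 fold change of sorafenib over water was -0.26 ± 0.16 at day 28, 0.18 ± 0.2 at day 14 and -0.06 ± 0.13 for the average (adjusted p 0.46, 0.713 and 0.813).

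Between the water groups Igfbp7 was 2.85-fold higher at day 28 than at day 14, a log2 fold change of 1.51 ± 0.19 with an adjusted p of 0.00063 by edgeR. It was the one member of 9 tested that passed, where 8.51% of 18174 genes passed (5.8% higher and 2.7% lower). Every day 28 water library was above every day 14 water library, as 17.7% of all genes were; 16.1% lay wholly below. It passed in every alternative run, at 1.30 to 1.62, the lowest value being that with the length trend removed. Its annotated exons are short (1.11 kb; chr14:30737414-30797317, mRatBN7.2, plus strand), and Polr2b overlaps it on the other strand.

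The other 8 tested members had log2 fold changes of -0.27 to 0.79 between the water groups and did not pass. Igfbp6 had the largest of these (0.79, adjusted p 0.237), followed by Igfbp3 (0.56, adjusted p 0.38) and Igfbp5 (0.44, adjusted p 0.24). Marker genes that differed between the same water groups were Tnnt2 and Tnni3 (2 of 7 cardiomyocyte markers rose, by 1.23 and 1.47 on the log2 scale) and Rgs5 and Myh11 (2 of 8 mural markers rose, by 0.63 and 0.97). Of 6 mesothelial markers, 4 fell (Upk3b, Upk1b, Msln and Lrrn4), and the summed level was 15.3 to 33.7 CPM in water day 28 hearts and 42.9 to 80.1 CPM in water day 14 hearts. Of 8 endothelial, 8 fibroblast and 8 myeloid markers 0 passed by edgeR, and 3, 1 and 1 had an unadjusted p under 0.05, as 24.5% of all genes had. Their part in the Igfbp7 difference was not tested.

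**Figure D3:**
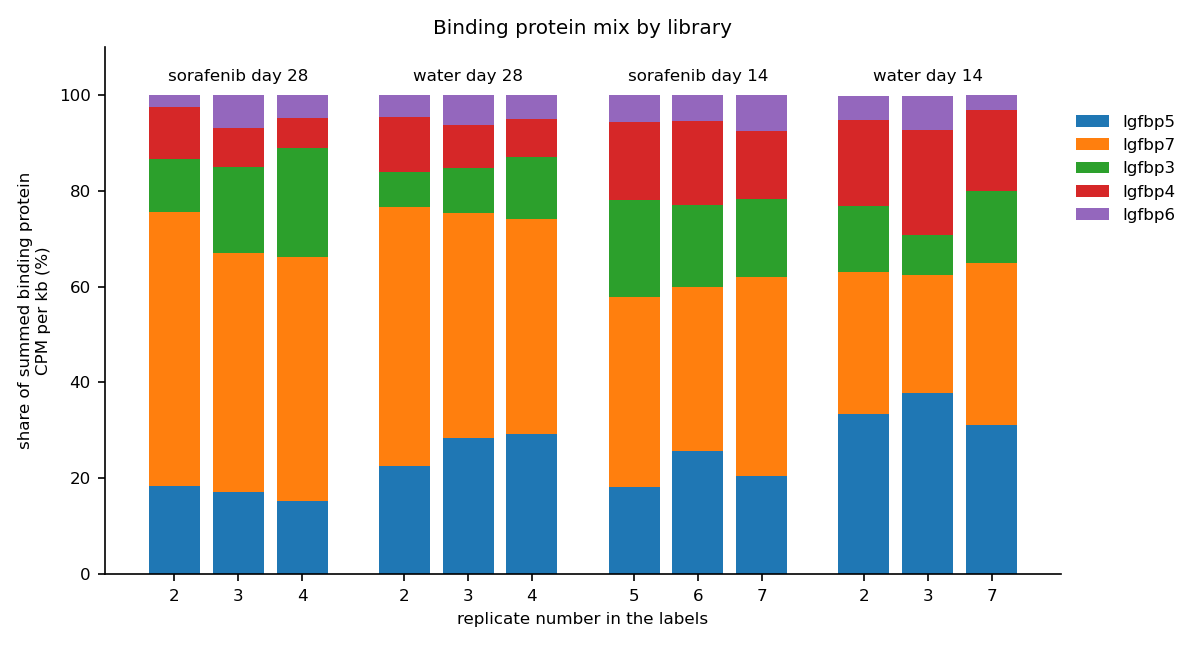
Share of each binding protein (%) in the summed binding protein level (CPM per kb of exon), 1 bar per library, grouped by treatment and day; Igfbp2, at most 0.309%, is not drawn. The Igfbp5 segment is smaller in each sorafenib bar (15.2 to 18.3% at day 28, 18.1 to 25.7% at day 14) than in the water bars of its day (22.5 to 29.3% and 31.1 to 37.7%).

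Per kb of exon the order of the family over 12 libraries was Igfbp7 (66.8 CPM per kb), Igf2r (44.8), Igfbp5 (38.0), Igfbp3 (21.3), Igfbp4 (18.6), Igf1 (15.7), Igfbp6 (8.07), Igf2 (6.57), Igf1r (6.23) and Igfbp2 (0.0812). Neighbours in this order swapped places in at least 3 of 12 libraries, with the exception of Igf1, above Igfbp6 in all 12, and Igf1r, above Igfbp2 in all 12. The lead of Igfbp7 over Igf2r held in 7 of 12 libraries. These levels depend on the exon lengths in the annotation.

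The make-up of the binding protein transcripts is shown by library in the plot of shares. Igfbp5 made up 16.9 ± 1.56% of the summed binding protein level in sorafenib day 28 hearts, against 26.8 ± 3.71% in water day 28 hearts (SD, n = 3 each). At day 14 its share was 21.5 ± 3.87% with sorafenib, against 34.1 ± 3.33% with water. Igfbp3 made up 17.3 ± 5.89% with sorafenib and 9.83 ± 2.93% with water at day 28, and 17.8 ± 2.13% with sorafenib and 12.4 ± 3.71% with water at day 14. Igfbp5 stood 1.09 ± 0.503 times as high as Igfbp3 per kb with sorafenib and 2.82 ± 0.483 times with water at day 28, and 1.22 ± 0.307 times with sorafenib and 3.02 ± 1.38 times with water at day 14. The ranges of this ratio did not overlap at either day. Without the shallow library, the other 2 of sorafenib day 28 had ratios of 1.65 and 0.666, Igfbp5 shares of 18.3 and 15.2%, Igfbp3 shares of 11.1 and 22.9% and family sums of 209.9 and 242 CPM per kb. The sum over all 10 members was 233 ± 20.2 CPM per kb with sorafenib and 300.4 ± 63 with water at day 28, and 171 ± 22 with sorafenib and 201 ± 27.2 with water at day 14. Its ranges did not overlap at day 28 (209.9 to 247 with sorafenib, 258 to 373 with water). They overlapped at day 14 (149 to 193 with sorafenib, 176 to 230 with water). Without TMM factors the ranges of this sum overlapped at day 28 too, through the shallow library. Its TMM factor was 1.155, against 0.8 to 0.982 in the water day 28 libraries. These sums and ratios were not tested.

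**Figure D4:**
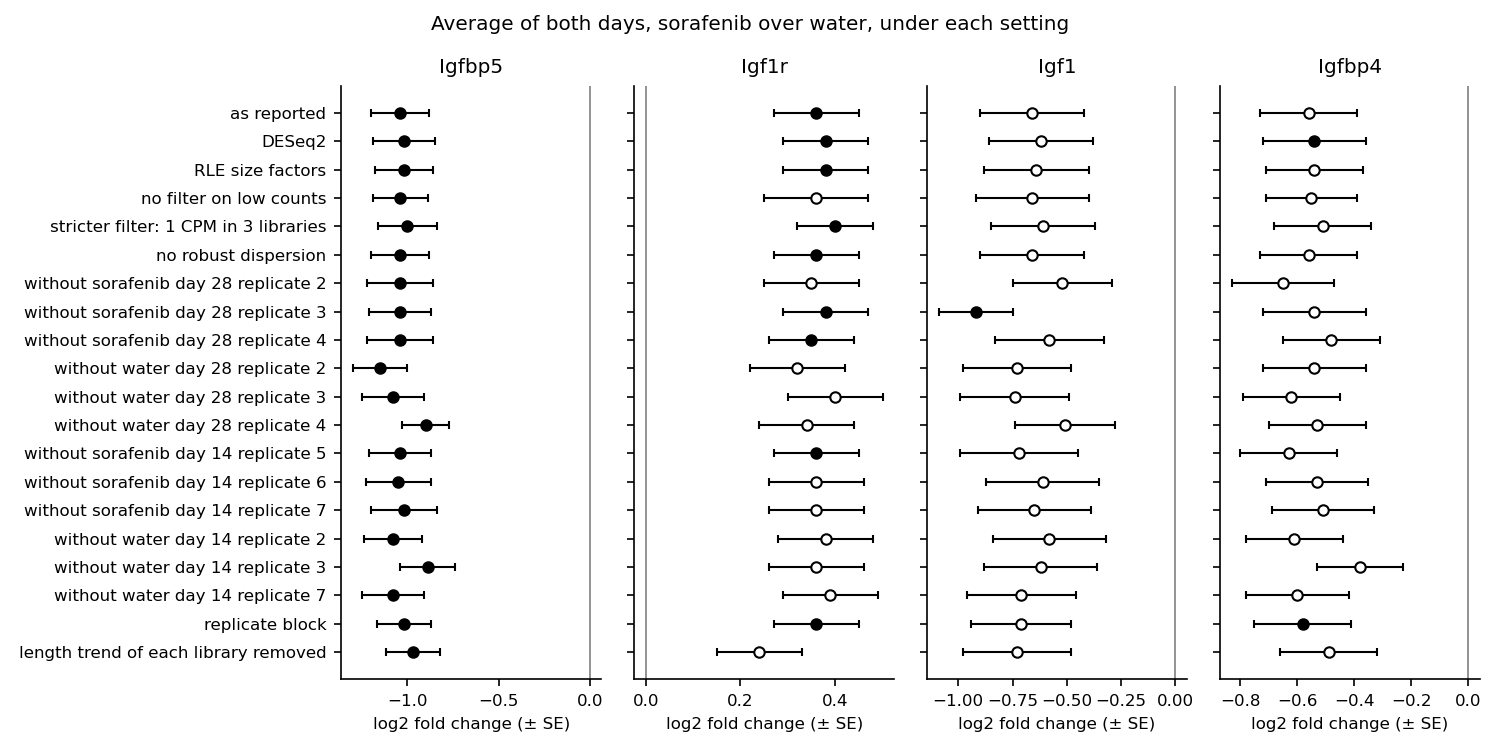
Average log2 fold change of sorafenib over water (± SE) for Igfbp5, Igf1r, Igf1 and Igfbp4 as reported (top row) and under each other setting; filled points have an adjusted p under 0.05, and each panel has its own scale. Igfbp5 is filled in every row, Igf1r in 9 of 20 rows, Igf1 in the row without sorafenib day 28 replicate 3, and Igfbp4 in the rows of DESeq2 and the replicate block.

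The genes whose levels over the 12 libraries were most like those of Igfbp5 were Serpinh1, a chaperone of collagen folding, Stbd1, a glycogen-binding protein, and Tspan9, a tetraspanin. Likeness was the mean absolute difference of log2 CPM centred on each gene, over 11729 genes with a mean of 5 CPM or more, and it was 0.224, 0.236 and 0.24 for these genes, where the median gene was at 0.521. Serpinh1 was at 107 ± 21.1 CPM with sorafenib and 199.8 ± 33.8 CPM with water at day 28, and at 109.8 ± 7.78 CPM with sorafenib and 201 ± 44 CPM with water at day 14. For Igf1r the most alike were Acbd6 (0.0727), an acyl-CoA-binding protein, Nemf (0.0779), a factor of ribosome-associated quality control, and Acd (0.0806), a telomere protein, with a median gene at 0.321. Acbd6 was at 38.2 ± 1.79 CPM with sorafenib and 30.6 ± 3.61 CPM with water at day 28, and at 34.7 ± 0.958 CPM with sorafenib and 26.8 ± 1.23 CPM with water at day 14.

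Around the family, 1 gene passed in each of 2 of the 5 lists of related genes in the average of both days, where 2% of all genes rose and 2.41% fell. Among proteins that govern IGF availability or carry an IGFBP domain, 11 of 15 were tested, and in the average 0 rose and 1, Esm1, fell, with a list median of 0.07. Esm1, a proteoglycan of endothelial cells, had 4, 0 and 4 counts in sorafenib day 28 libraries, against 21, 62 and 91 in those of water, and 10, 1 and 19 counts with sorafenib, against 27, 63 and 27 with water, at day 14. Its log2 fold change was -2.64 ± 0.56 (adjusted p 0.0251), and the call was lost without sorafenib day 28 replicate 2 (adjusted p 0.0979) or without water day 14 replicate 3 (adjusted p 0.0705).

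Of 34 insulin and IGF signalling genes, all tested, 0 rose and 1, Grb2, fell. Grb2 is the adaptor that links receptor tyrosine kinases to RAS. It was at 58.6, 60.2 and 73.4 CPM with sorafenib and 71.8, 80.9 and 97.3 CPM with water at day 28, and at 39.7, 54.5 and 54.2 CPM with sorafenib and 66.9, 70.5 and 76.7 CPM with water at day 14. The groups overlapped at day 28 and not at day 14. Its average log2 fold change was -0.45 ± 0.12 (adjusted p 0.0434), and that call was lost in 10 of the 12 fits that left out a library, all but those without sorafenib day 28 replicate 4 or water day 28 replicate 2, at adjusted p-values of 0.0647 to 0.135. In this list 27 of 34 values were below 0, with a median of -0.11, where 9225 of 18174 genes were below 0 with a median of -0.01.

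Of 10 growth hormone axis genes 0 passed in any comparison by edgeR, and 2 had an unadjusted p under 0.05 in the average, as 24.3% of all genes had. The smallest p-values there were those of Ghr, the growth hormone receptor, and Socs2, a feedback inhibitor of its signal. Ghr was at 128, 143 and 209 CPM in the sorafenib day 28 libraries and at 225, 261 and 318 CPM in those of water, ordered by level, and the groups did not overlap. At day 14 it was at 158, 207 and 257 CPM with sorafenib and at 239, 249 and 271 CPM with water. Its average log2 fold change was -0.51 ± 0.15 (adjusted p 0.0683), and that of Socs2 was -0.31 ± 0.14 (adjusted p 0.18). Ghr passed with DESeq2 (adjusted p 0.0207), with the replicate block (adjusted p 0.0281) and without sorafenib day 28 replicate 4 (-0.64, adjusted p 0.023), 3 of the 19 alternatives run, and its adjusted p reached 0.179; Socs2 passed in 0 of 19.

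Of the imprinted growth genes and Igf2 mRNA-binding proteins 10 of 13 were tested, and of the TGF beta and matrix genes that act with binding proteins 13 of 13; none passed in the average by edgeR, where 2 of 10 and 6 of 13 had an unadjusted p under 0.05, beside 24.3% of all genes. Their medians were 0.02 and -0.26, with 12 of the 13 TGF beta and matrix genes below 0.

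**Figure D5:**
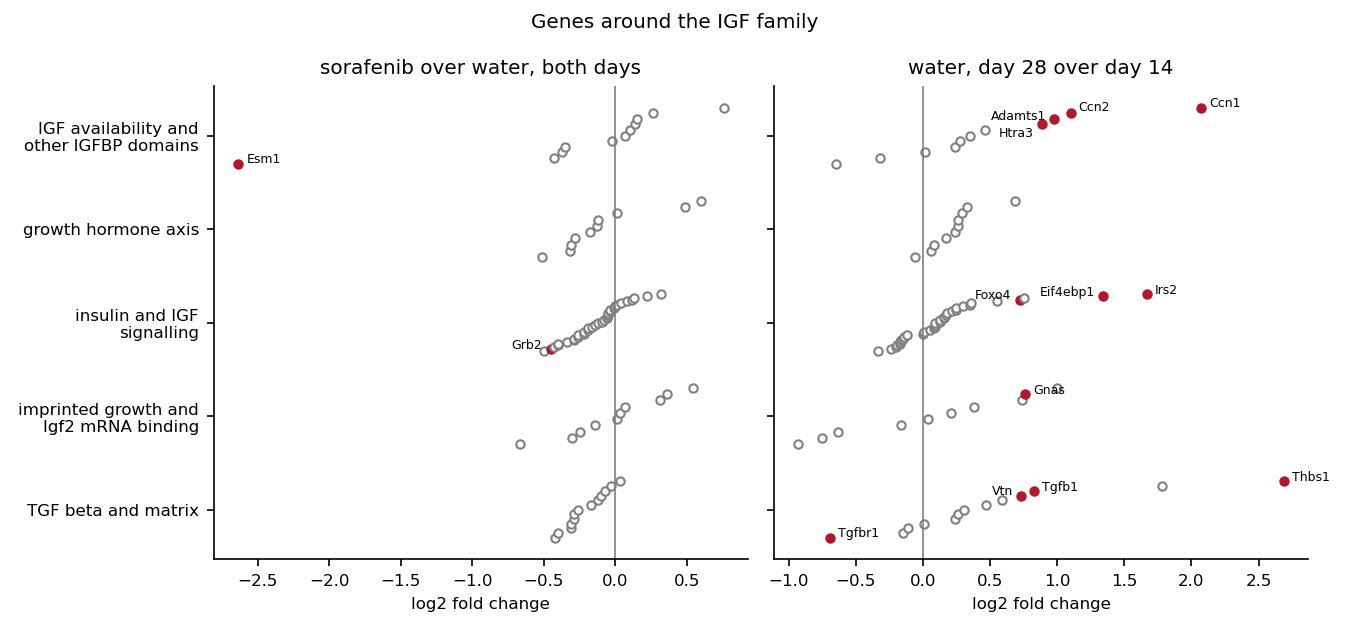
Log2 fold change of each tested gene of the 5 lists of related genes, for sorafenib over water averaged over both days (left) and for water day 28 over water day 14 (right); filled, named points have an adjusted p under 0.05. On the left Esm1 (-2.64) and Grb2 (-0.45) are filled, and on the right most filled points lie above 0, led by Thbs1 (2.69) and Ccn1 (2.07).

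Between the water groups 5.8% of all genes rose and 2.7% fell at day 28 relative to day 14, and the median of all genes was -0.04. Among the availability genes 4 of 11 rose and 0 fell, with a list median of 0.35. Ccn1, a matricellular protein with an IGFBP domain, was at 99.4, 102 and 105 CPM at day 28 and at 17.6, 19.4 and 35.9 CPM at day 14 (2.07 ± 0.26, adjusted p 0.000533). The others were its relative Ccn2 (1.10, adjusted p 0.0322) and the proteases Adamts1 (0.98, adjusted p 0.0167) and Htra3 (0.89, adjusted p 0.0137).

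Of the signalling genes 3 of 34 rose in the older water hearts, a share near the 5.8% of all genes, and 0 fell. These were Eif4ebp1, a translation repressor downstream of mTOR (1.34 ± 0.19, adjusted p 0.000991), the adaptor Irs2 (1.67 ± 0.32, adjusted p 0.00642) and the transcription factor Foxo4 (0.72, adjusted p 0.017). Irs2 was at 161, 269 and 280.3 CPM at day 28 and at 57.7, 76.8 and 88.5 CPM at day 14. Among the imprinted genes 1 of 10 rose, Gnas, which encodes a stimulatory G protein subunit and has genes on its opposite strand (0.76, adjusted p 0.0387).

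Of the TGF beta and matrix genes 3 of 13 rose and 1 fell. The matricellular protein Thbs1 was at 112, 317 and 417 CPM at day 28 and at 39.3, 44.0 and 47.9 CPM at day 14 (2.69 ± 0.50, adjusted p 0.00613). Tgfb1 (0.83, adjusted p 0.013) and the adhesion protein Vtn (0.73, adjusted p 0.0294) also rose, and the receptor Tgfbr1 fell by 0.69 on the log2 scale (adjusted p 0.0125). Of these water calls, those of Ccn1, Eif4ebp1, Irs2 and Thbs1 held in each fit that left out a library, and those of Ccn2, Adamts1, Htra3, Foxo4, Gnas, Tgfb1, Vtn and Tgfbr1 were each lost in at least 1, with highest adjusted p-values of 0.0624 (Tgfb1) to 0.155 (Ccn2).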

How the data were processed

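RNA of whole hearts, depleted of ribosomal RNA, was sequenced paired-end in 12 libraries, as the labels' protocols state. The authors deposited read counts per gene; per the file headers these come from featureCounts 2.0.1, run on the RefSeq genes of mRatBN7.2 without a strand option, although the kit marks strand per the labels. STAR is named in the submitters' processing notes, version not given in the sources used here. In the day 14 table, 2 columns match no sample and were not used.

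The counts went into edgeR 4.0.16 (R 4.3.3) after filterByExpr and TMM, with the quasi-likelihood test, robust dispersion and Benjamini-Hochberg adjustment over all genes tested; the threshold was 0.05. Each day was fitted alone. One fit of the 4 groups gave the average of both days, the day 28 minus day 14 effect and the comparison of water groups. SE was taken as the size of the log2 fold change over the square root of F. CPM per kb divides by the tables' exon length. Likeness used log2 CPM with a prior count of 2. The code was tested on simulated data. The smallest chi-square per gene between libraries of a group was 7.5 (sorafenib day 28 replicates 2 and 3), so all differed by more than counting error. This cannot tell whether libraries came from the same animal.

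The members and all gene lists were chosen with earlier results of these data known. Of each list of related genes, those past the threshold are named, at most 4 by smallest p per comparison, and where a list had none in any comparison the 2 of smallest p in the average. Of the listed genes 2 were not found in the tables. Other settings tried were DESeq2 1.42.0; RLE factors; no filter, or a filter of 1 CPM in 3 libraries; dispersion without the robust option; the single days within the 4-group fit; a block for the replicate number; leaving out each library; and taking out the lowess trend (span 0.3) of level on exon length, which was chosen after seeing the data, as was leaving the shallow library out of ratios, shares and sums. A gene table of GRCr8 served to check chromosomes: of 27158 symbols placed in both builds, 99.8% lay on the same one.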

Additional observations from a re-analysis of the deposited data

How the results depend on the processing

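Igfbp5 in the average of both days passed the threshold in all 19 alternatives run (-1.15 to -0.89), and so did Igfbp7 between the water groups (1.30 to 1.62). The number of members past the threshold was 2 at day 28 and 2 at day 14 with DESeq2 (Igf2 and Igfbp5, and Igf1 and Igfbp5), 1 at each day with no filter on low counts (Igfbp5, adjusted p 0.0341 and 0.0202) and 0 at both days in every fit that left out a library. At day 28 it was 1 with the replicate block (Igfbp5, -1.04, adjusted p 0.0488). Replicate numbers occur in both day 28 groups, but the labels do not say that they pair libraries, so the main fits took no pairs. Deviations from group means had correlations of 0.115, 0.002 and 0.163 between same-numbered libraries. Between differently numbered ones they were -0.161 to 0.05, and these values do not settle whether the libraries are paired. Over all genes the block moved the day 28 calls from 0 to 108 and those of the average from 801 to 1648. With the block 3 members passed in the average, Igfbp4 being the addition (-0.58, adjusted p 0.0492). In the average the count of members, 2 as reported, was 1 with no filter (Igf1r lost, adjusted p 0.0705), 1 with the length trend removed and 1 to 3 without single libraries, the 3 without sorafenib day 28 replicate 3, where Igf1 joined. Where settings moved the calls over all genes by more than 1.5 times, these were, beside 0 at day 28, 268 with DESeq2, 82 with no filter, 53 in a fit of all groups, 5 with the length trend removed and 0 to 3 without single libraries; beside 0 at day 14, 393 with DESeq2, 87 with no filter, 4 in a fit of all groups and 0 to 27 without single libraries; beside 801 in the average, 1765 with DESeq2 and 35 to 1562 without single libraries; beside 1546 between water groups, 558 to 1812 without single libraries; and beside 0 for the difference between days, 5 with DESeq2 and 0 to 1 without single libraries. The cause was not tested.

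Signs turned for values near 0 that were not called. With single libraries left out, day 14 values ranged from -0.42 to 0.28 for Igf2, -0.29 to 0.51 for Igfbp6 and -0.01 to 0.37 for Igfbp7, and the average of Igfbp7 from -0.13 to 0.03. Differences between days ranged from -0.50 to 0.37 for Igf1, -0.03 to 0.11 for Igf1r, -0.39 to 0.53 for Igfbp3, -0.38 to 0.12 for Igfbp4 and -0.40 to 0.13 for Igfbp5. Water differences ranged from -0.08 to 0.40 for Igf1, -0.10 to 0.33 for Igf2 and -0.43 to 0.02 for Igfbp4. DESeq2 gave Igf2 at day 14 a value of 0.00, and the difference between days was -0.03 for Igf1 under the replicate block of day 28, and -0.02 for Igf1 and -0.07 for Igf1r with the length trend removed. With 3 libraries a group, 1 of them of 1036483 counts, modest differences within a single day can go uncalled, and sorafenib day 28 levels below about 3 CPM rest on few counts in that library.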
